A study of Oryza sativa with 8 samples.

Results

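Gene expression in anthers of nrpd1 knockdown rice was compared with that in wild-type (WT) anthers. The members are the genes that reached at least 1 FPKM (fragments per kilobase of transcript, divided by the mapped fragments of the library) in either anther group, which held for 17943 of the 30154 gene names in the table. FPKM is a level per transcript length. All plants were of the indica rice cultivar Pusa Basmati 1, were grown in a greenhouse with natural day length and were handled alike, per the labels. The groups used were nrpd1 knockdown anther, WT anther, nrpd1 knockdown pre-emerged panicle and WT pre-emerged panicle, the panicle groups only as values beside the anther ones. Anthers were taken before they opened, and the panicles before they emerged from the sheath. The labels give 2 libraries for each of the 4 groups, with no plant age, no name for the knockdown line and no account of how the knockdown was made. The table gives a single value per gene and group, so nothing below has a replicate error or a test, and no difference could be set against the spread between replicates.

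In plants, RNA polymerase IV transcribes transposons and repeats into precursors of short interfering RNAs, and these guide DNA methylation back to the same sequences. NRPD1 is its largest subunit. An anther holds the developing pollen grains and the layers of its wall. The innermost layer, the tapetum, feeds the grains and builds their coat before it degenerates. Late in development the grains fill with starch and with proteins for growth of the pollen tube. In such a mixed tissue a lower level can mean fewer cells of a type or less RNA per cell, and the values here cannot tell these apart.

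The change of a gene is the difference of log2(FPKM + 1), knockdown minus WT. The added 1 makes changes between low levels smaller than their ratio. A gene was called higher or lower at a change of at least 1 in size. Higher in the knockdown were 1323 of the compared genes (7.37%) and lower were 3164 (17.6%), so that 25% were called in either direction. The middle of the distribution was a change of -0.15, with quartiles of -0.73 and 0.38, and 8194 genes (45.7%) changed by less than 0.5. Large changes were few: 245 genes were higher and 942 lower by at least 2, 87 were higher and 309 lower by at least 3, and 16 were higher and 15 lower by at least 5. Many genes lay at the threshold, with 239 higher genes between 1 and 1.1 and 332 uncalled genes between 0.9 and 1. On the lower side 390 genes lay just past the threshold and 447 just short of it. The minimum of 1 FPKM was as thinly separated, with 330 genes whose larger anther value lay between 1 and 1.1 FPKM and 355 left out between 0.9 and 1 FPKM.

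**Figure D1:**
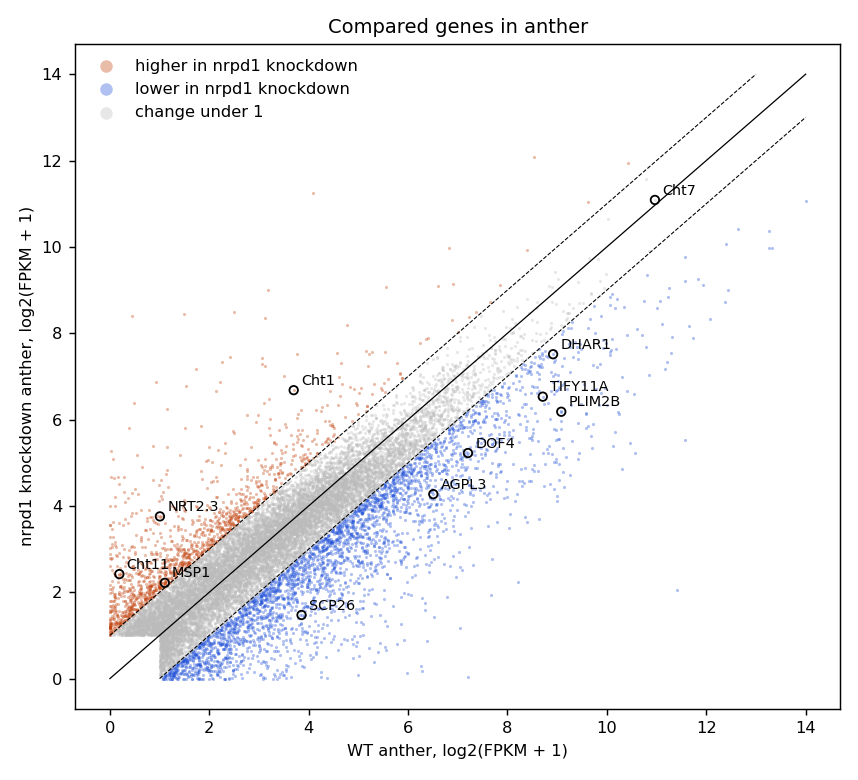
Each point is a compared gene, with its level in nrpd1 knockdown anther (vertical) against WT anther (horizontal), both as log2(FPKM + 1) from 1 value per group. The solid line marks equal levels and the dashed lines a change of 1 in either direction. PLIM2B, TIFY11A and AGPL3 lie below the lower dashed line, Cht1, NRT2.3 and Cht11 above the upper one, and Cht7 close to the solid line.

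The anther columns differed in how much of their signal sat in abundant transcripts. Summed FPKM was 341703 in knockdown anther and 636692 in WT anther. The genes with less FPKM in the knockdown fell by 350305 FPKM in sum, and those with more gained 55316 FPKM. The 10 largest losses made up 19.3% of the summed loss, the 100 largest 47.2% and the 1000 largest 80.6%. Because of this difference the changes depend on how the columns are scaled to each other. Making the column totals equal moved the median change by 0.76, quantile normalization by 0.23 and median centring by 0.15. Of all calls 29.5% were higher as deposited, 41.5% with median centring (1841 higher, 2598 lower), 45.3% with quantile normalization (1943 higher, 2348 lower) and 79.8% with equal totals (5267 higher, 1330 lower). As a guide, the median change of -0.15 can be subtracted from each change below to read it relative to the middle gene.

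The most abundant WT transcripts were nearly all lower. Of the 62 genes at 1000 FPKM or more in WT anther, 56 (90.3%) were lower and 1 was higher, with a median change of -2.66. Quantile normalization left 37 of them lower. The 100 most abundant genes of WT anther summed to 45491 FPKM in knockdown anther and 199516 FPKM in WT anther, and 84 of them were lower. Such a set is chosen on the WT column, which is part of the contrast, so the opposite choice is given beside it. Of the 14 genes at 1000 FPKM or more in knockdown anther, 5 were higher and 6 were lower. The 100 most abundant genes of knockdown anther summed to 66186 FPKM there and 149662 FPKM in WT anther, with 20 higher and 33 lower. With the columns as deposited, lower genes outnumbered higher ones under either choice, and 47 genes were among the 100 most abundant of both columns.

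A split by the panicle columns sets its ranges without either anther column. The anther columns still enter through the filter, since each compared gene reached 1 FPKM in at least 1 of them. Genes with little panicle signal are thus included only through their anther level, so this split is no independent check. Genes that stayed under 1 FPKM in both panicle columns numbered 1667, and 9.42% of them were higher and 28.6% lower in knockdown anther. Of the 7777 genes whose higher panicle value lay from 1 to 10 FPKM, 7.66% were higher and 15.6% lower. Of the 7640 genes from 10 to 100 FPKM in panicle, 6.40% were higher and 16.5% lower. The genes with little or no panicle signal had a larger share of lower calls than these next ranges, with a median change of -0.50 against -0.04 and -0.18. At higher panicle levels the share was larger again, with 24.7% lower among the 834 genes from 100 to 1000 FPKM and 8 of 25 genes (32%) lower at 1000 FPKM or more. The share of lower calls therefore did not run in 1 direction with the panicle level.

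**Figure D2:**
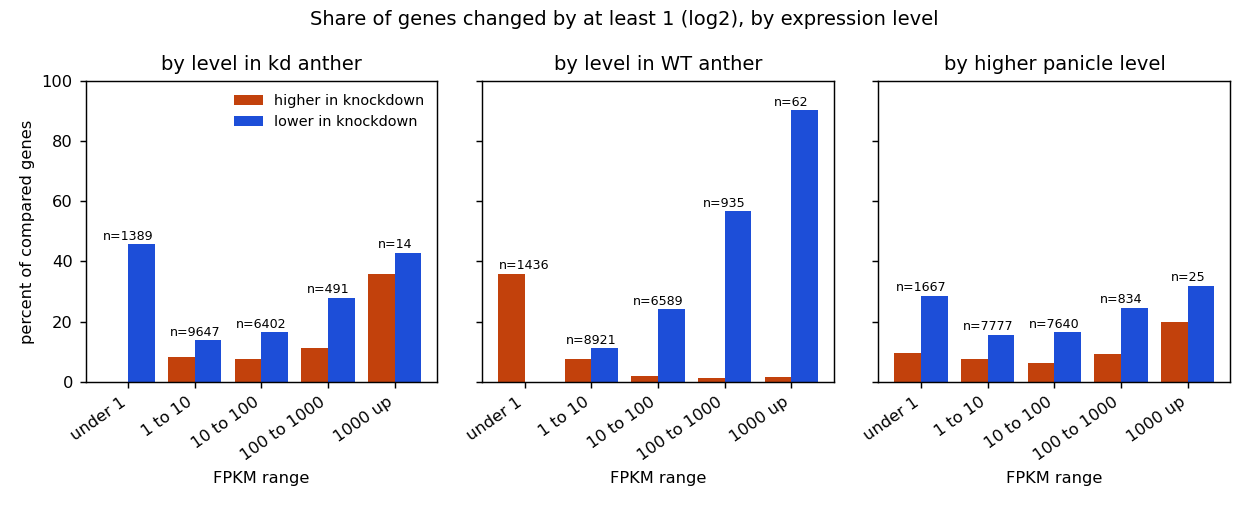
Bars give the percent of compared genes called higher or lower in knockdown anther, by FPKM range in knockdown anther (left), in WT anther (middle) and in the higher of the panicle columns (right), with the number of genes above each pair. Lower genes reach 90.3% in the top WT range, while in the left panel they outnumber higher genes in each range. In the left and middle panels the range and the change share a column.

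Complete losses and gains were rare. Only 31 genes at 1 FPKM or more in WT anther were listed at 0 in knockdown anther, and the highest of them stood at 9.35 FPKM in WT. In the other direction 38 genes at 1 FPKM or more in knockdown anther were listed at 0 in WT anther, the highest at 14.9 FPKM in the knockdown. With a wider definition, 49 genes stood at 10 FPKM or more in knockdown anther and under 1 FPKM in WT anther, and 73 genes the other way.

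Most genes in the table carry an identifier without a name. Of 29982 distinct identifiers of the Os form none was paired with a symbol in the RefSeq gene table used, so roles are given only where the table itself prints a symbol. It does so in 188 entries, of which 29 join the symbol with other names. In anther 121 of these entries were compared; 15 were higher (12.4%) and 25 were lower (20.7%), beside 7.37% and 17.6% over all compared genes. Their median change was -0.31. NRPD1 is not analysed here, since no entry carries that symbol, and the knockdown itself was not checked. Of 33 markers listed for tapetum, meiocyte, pollen, green tissue, pistil and panicle meristem, 1 was found by symbol, the meristem gene OSH1. The tissue label therefore rests on the labels and on the few named genes that follow. Coordinates are those of the table, whose genome build is not given in the sources used here.

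**Figure D3:**
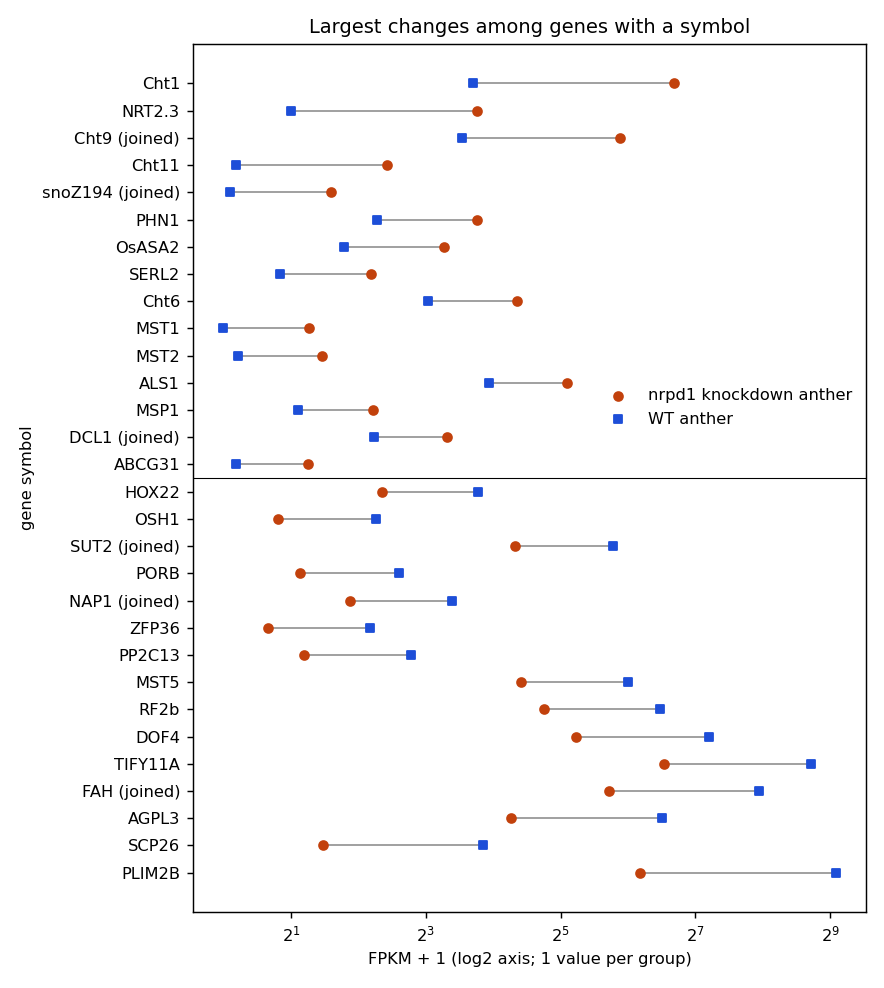
Points give FPKM + 1 on a log2 axis in nrpd1 knockdown anther (circles) and WT anther (squares) for the 15 entries with the largest rise (upper block, largest at the top) and the 15 with the largest fall (lower block, largest at the bottom) among entries with a symbol. Entries marked joined print the symbol together with another name. The falls include PLIM2B and TIFY11A, at 541 and 418 FPKM in WT anther, while each of the 15 rises was under 15 FPKM in WT anther.

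Among genes of the cytoskeleton and of male fertility, PLIM2B changed most. It belongs to the LIM-domain proteins that bundle actin, and PLIM2 proteins of other plants are pollen proteins. PLIM2B (chromosome 4, 26620954 to 26622644) stood at 71.5 FPKM in knockdown anther, 541 in WT anther, 0.0372 in knockdown panicle and 31.8 in WT panicle. WT anther was the highest of the 4 columns and knockdown panicle almost empty. Its anther change was -2.90, the lowest among entries with a symbol, and it lay between -2.90 and -1.96 over the 4 scalings. DTM1 (chromosome 7, 25761574 to 25765665), a gene needed for tapetum and meiocyte development in rice, had 21.2 FPKM in knockdown anther and 38.2 in WT anther. Its change of -0.82 stayed under the threshold and became 0.05 with equal totals.

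The remaining genes of this group moved little. CRC1, a component of the central region of the synaptonemal complex of rice meiosis, stood at 5.18 FPKM in knockdown anther and 5.23 in WT anther, a change of -0.01. The entry PSS1 (chromosome 1, 1046372 to 1053174) had 7.33 and 11.01 FPKM in knockdown and WT anther, a change of -0.53. It was grouped by its symbol alone, and its role was not checked. The kinesin gene KIN13A changed by -0.56 and the formin gene FH5 by -0.31. None of these 4 reached the threshold, and all 4 changes turned positive with equal totals. Of the 8 entries in the group, PSS1 included, 2 were lower and none was higher, beside 17.6% lower over all compared genes. The median change was -0.54, and whether PSS1 belongs in the group is uncertain. The second lower entry joins NAP1 with another identifier, while the NAP1 entry alone changed by 0.05.

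Starch and sugar genes split. ADP-glucose pyrophosphorylase makes the sugar nucleotide from which starch is built, from large (AGPL) and small (AGPS) subunits. AGPL3 (chromosome 5, 28871720 to 28877323) stood at 18.3 FPKM in knockdown anther, 90.0 in WT anther, 25.04 in knockdown panicle and 23.8 in WT panicle. WT anther was the one high column, and the knockdown anther level lay near the panicle levels. The change of -2.24 stayed past the threshold under all 4 scalings (-2.24 to -1.36). AGPL4 was weaker, at 1.104 FPKM in knockdown anther and 4.18 in WT anther, a change of -1.30 that became -0.71 with equal totals. AGPL2, at 22.6 and 19.6 FPKM in knockdown and WT anther, changed by 0.19. AGPS1 and AGPS2 changed by -0.20 and -0.21, and AGPL1 did not reach 1 FPKM in either anther column. Of the 6 subunit genes, 5 were compared and 2 were lower, beside 17.6% lower over all compared genes. This group and the others described here were put together after their values had been seen.

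The monosaccharide transporters (MST), which move hexoses into cells, went both ways. MST5 (chromosome 8, 4570996 to 4585726) stood at 20.3 FPKM in knockdown anther, 63.1 in WT anther, 0 in knockdown panicle and 5.84 in WT panicle. Its change was -1.59, and -0.72 with equal totals. MST4 had 13.1 and 35.4 FPKM in knockdown and WT anther, a change of -1.37 that fell short of the threshold with equal totals (-0.51) and quantile normalization (-0.98). MST1 and MST2 were higher, with changes of 1.27 and 1.25, but at low levels. MST1 had 1.41 FPKM in knockdown anther and was listed at 0 in WT anther, and MST2 had 1.75 FPKM in knockdown anther and 0.160 in WT anther. Both genes reached 1 FPKM only in knockdown anther, so they could be compared only with a rise.

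MST6 changed by -0.32 and the MST3 entry, which joins another identifier, by 0.27. MST8, known as a sugar transporter of rice anthers, was at 0.586 FPKM in knockdown anther and 0.0416 in WT anther and so was not compared. MST7 too stayed under 1 FPKM. Summed over all 8 MST entries the level was 68.9 FPKM in knockdown anther and 131.6 in WT anther. The sucrose transporter entry that joins SUT2 with another identifier stood at 19.0 FPKM in knockdown anther and 54.0 in WT anther, a change of -1.46, and -0.97 and -0.59 with quantile normalization and equal totals.

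**Figure D4:**
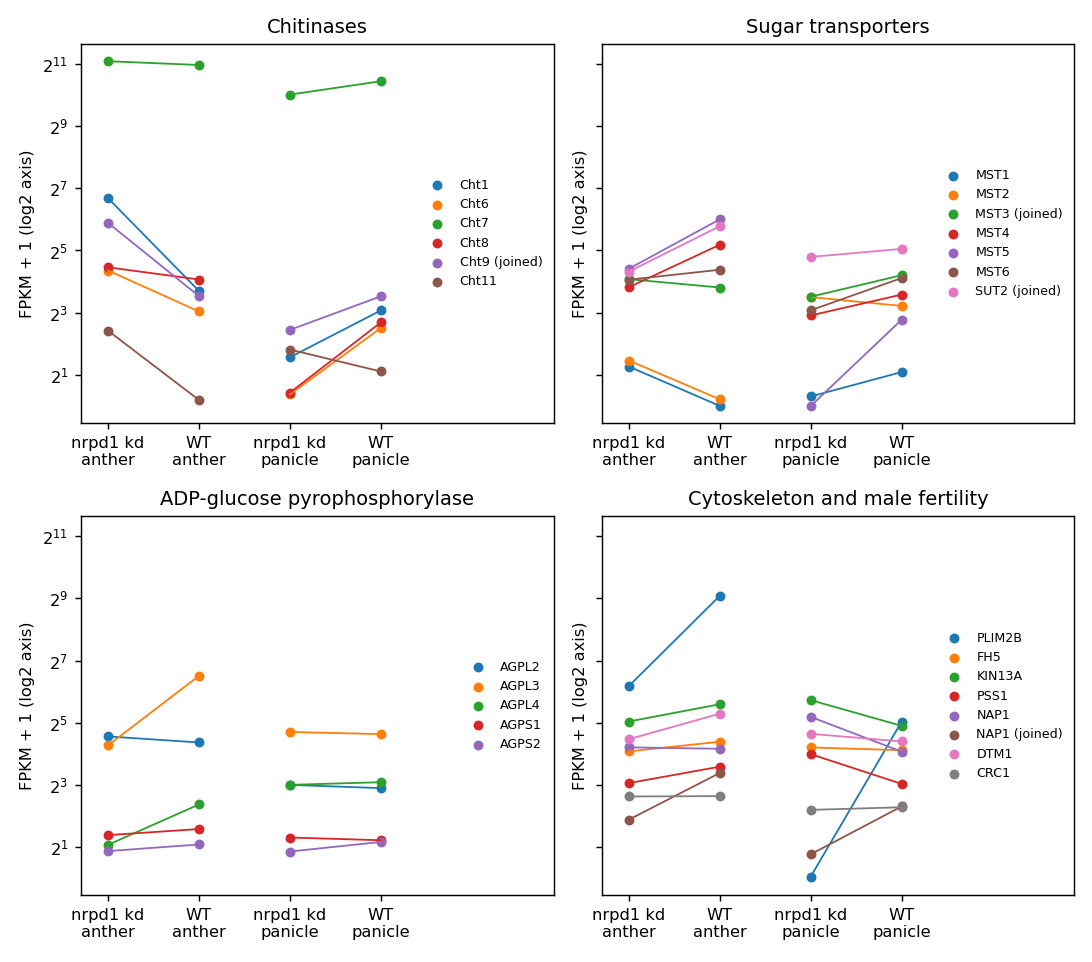
Each point is the FPKM + 1 (log2 axis) of a compared gene in nrpd1 knockdown anther, WT anther, nrpd1 knockdown panicle and WT panicle, with a line joining knockdown and WT within a tissue. Cht1, Cht6, Cht11 and the joined Cht9 entry slope down from knockdown to WT anther, and all but Cht11 slope the other way in panicle. PLIM2B and AGPL3 slope up from knockdown to WT anther. Entries marked joined list the symbol with another name.

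The chitinases (Cht), enzymes that cut the chitin of fungal cell walls and are counted among the pathogenesis-related proteins, were the named family with the most higher genes. Of 11 chitinase entries, 6 were compared and 4 of these were higher and none lower, with a median change of 1.77, against 7.37% higher over all genes. Of the 4, Cht11 reached 1 FPKM only in knockdown anther, so it could enter this count only with a rise. Cht1 (chromosome 6, 30890704 to 30892264) stood at 102 FPKM in knockdown anther, 11.98 in WT anther, 1.96 in knockdown panicle and 7.41 in WT panicle. Knockdown anther was the one high column. The change in anther was 2.98, the largest among entries with a symbol, and over the scalings it lay between 2.98 and 3.84. The entry that joins Cht9 with another identifier (chromosome 5, 19426423 to 19436504) had 58.2 FPKM in knockdown anther and 10.6 in WT anther, a change of 2.36. In panicle the same entry had 4.45 FPKM in the knockdown and 10.5 in WT.

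Cht11 (chromosome 3, 1860428 to 1861786) was almost silent in WT anther, with 4.35 FPKM in knockdown anther and 0.141 in WT anther, a change of 2.23. Cht6 (chromosome 2, 23742999 to 23744109) had 19.5 FPKM in knockdown anther and 7.21 in WT anther, a change of 1.32. All 4 passed the threshold under each of the 4 scalings, but median centring and equal totals can only enlarge a rise. Cht8, at 21.0 and 15.8 FPKM in knockdown and WT anther, changed by 0.39 and passed the threshold only with equal totals (1.25).

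Cht7 (chromosome 5, 19445842 to 19447925) was by far the most abundant chitinase, and it hardly changed. It stood at 2175 FPKM in knockdown anther, 2000 in WT anther, 1033 in knockdown panicle and 1392 in WT panicle. Its change was 0.12 as deposited, but 1.02 with equal totals and 1.73 with quantile normalization. Cht3, Cht5, Cht10, the entry for Cht9 alone and Chib3H-h stayed under 1 FPKM in both anther columns. Because Cht7 outweighs the others, the summed chitinase level was 2382 FPKM in knockdown anther and 2046 in WT anther. Chitinase genes resemble each other, and how reads shared between them were divided is not given in the sources used here.

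Other genes of defence and receptor signalling were mixed. WRKY71, a transcription factor gene of defence responses in rice, stayed under 1 FPKM in both anther columns. LYP6, a receptor protein that binds chitin and peptidoglycan in rice, had 9.39 FPKM in knockdown anther and 5.70 in WT anther, a change of 0.63. FLS2, the flagellin receptor, was near 0 in all columns. The receptor kinase MSP1 (chromosome 1, 40016511 to 40023875), which limits the number of cells that enter meiosis in the rice anther, stood at 3.65 FPKM in knockdown anther, 1.15 in WT anther, 8.50 in knockdown panicle and 2.997 in WT panicle. The knockdown column was the higher of each tissue, and the anther change was 1.11.

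SERL2, a receptor-like gene related to the SERK co-receptors, had 3.54 FPKM in knockdown anther and 0.792 in WT anther, a change of 1.34. SERK4 changed by 0.83, SERK3 by 0.41 and SERK2 by -0.37. Of the 7 receptor entries 6 were compared, 2 were higher and none was lower, beside 7.37% higher and 17.6% lower over all compared genes. SERL2 reached 1 FPKM only in knockdown anther, so it could enter this count only with a rise. Both higher entries, MSP1 and SERL2, passed the threshold under all 4 scalings, at low levels. Median centring and equal totals can only enlarge a rise.

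Hormone and stress genes contained several falls. TIFY11A (chromosome 3, 4231807 to 4233089) belongs to the TIFY proteins, among them the JAZ repressors of jasmonate signalling. It stood at 91.4 FPKM in knockdown anther, 418 in WT anther, 9.71 in knockdown panicle and 18.5 in WT panicle. WT anther was the highest column, and the change of -2.18 lay between -2.18 and -1.24 over the scalings. TIFY3 had 173 FPKM in knockdown anther and 243 in WT anther, a change of -0.49 that became 0.41 with equal totals and 0.60 with quantile normalization.

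The phosphatase gene PP2C13 changed by -1.59 and the entry joining SAPK4, a kinase activated by osmotic stress, by -1.19; both fell short of the threshold with equal totals. SAPK8 changed by -0.87. Among ascorbate enzymes, DHAR1, a reductase that regenerates ascorbate, stood at 182 FPKM in knockdown anther and 483 in WT anther, and DHAR2 at 8.83 and 25.02 FPKM in knockdown and WT anther. Both changed by -1.40. With quantile normalization DHAR1 changed by only -0.15, and with equal totals by -0.51, so its call rests on the scaling. DHAR2 changed by -0.57 with equal totals. Of 7 compared ascorbate entries 2 were lower and none was higher, beside 17.6% lower and 7.37% higher over all compared genes.

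The transcription factor genes DOF4, RF2b, HOX22 and ZFP36 were lower. DOF4, of the plant Dof zinc finger family, had 36.4 FPKM in knockdown anther and 147 in WT anther, a change of -1.98 that stayed past the threshold under the 4 scalings. The other Dof genes, DOF2, DOF3 and DOF5, changed by -0.20, 0.63 and 0.01. RF2b, a bZIP factor, had 26.0 and 88.3 FPKM in knockdown and WT anther, a change of -1.72, and -0.85 with equal totals. The other compared bZIP genes, RISBZ3 and RISBZ5, changed by -0.61 and -0.73. Lower were 1 of 4 compared Dof genes and 1 of 3 compared bZIP genes, beside 17.6% over all compared genes. HOX22, a homeodomain gene, changed by -1.42 and -0.64 with equal totals, and the zinc finger gene ZFP36 changed by -1.52 and -1.02.

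SCP26, named as a serine carboxypeptidase, stood at 1.78 FPKM in knockdown anther, 13.5 in WT anther, 7.07 in knockdown panicle and 23.9 in WT panicle. The knockdown column was the lower in each tissue, and the anther change was -2.38 (-2.38 to -1.68 over the scalings). The entry that joins FAH with another identifier had 51.5 FPKM in knockdown anther and 244 in WT anther, a change of -2.23. A second entry at the same locus, which joins FAH with a different identifier, had 64.5 FPKM in knockdown anther and 59.2 in WT anther, a change of 0.12. The entries of this locus thus did not change alike.

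The nitrate transporter gene NRT2.3 (chromosome 1, 29188839 to 29191135) was the second-highest rise among entries with a symbol. It stood at 12.5 FPKM in knockdown anther, 1.01 in WT anther, 3.48 in knockdown panicle and 3.65 in WT panicle. Knockdown anther was the one high column, and the change was 2.75 (2.75 to 3.41 over the scalings). NAR2.1, the partner protein of NRT2 transporters, changed by -0.72 in the opposite direction at under 2 FPKM. OsASA2, an anthranilate synthase gene of tryptophan synthesis, had 8.65 FPKM in knockdown anther and 2.46 in WT anther, a change of 1.48. Changes of 1.49, 1.16 and 1.06 were found for PHN1, ALS1 and ABCG31, and an entry that joins the small nucleolar RNA snoZ194 changed by 1.49 at 2.01 FPKM in knockdown anther.

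All 15 rises with a symbol stayed past the threshold under the 4 scalings, and 7 of the 15 named falls did: PLIM2B, SCP26, AGPL3, the joined FAH entry, TIFY11A, DOF4 and ZFP36. The further 10 entries with a symbol that were lower had changes between -1.40 and -1.04. Median centring adds a constant to every change, and equal totals multiplies the columns before the pseudocount is added. Both enlarge rises and reduce falls, so these counts show no greater stability of the rises.

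Of 6 small RNA and DNA methylation entries 4 were compared in anther, and 1 was higher and 1 lower, both of them entries of DCL1. Over all compared genes 7.37% were higher and 17.6% lower. SHL2, an RNA-dependent RNA polymerase gene of trans-acting small RNA synthesis, had 5.06 FPKM in knockdown anther and 5.09 in WT anther. DCL3B, a Dicer-like gene, had 2.28 and 1.69 FPKM in knockdown and WT anther, a change of 0.29. The Dicer-like gene DCL1 fills 2 entries that went opposite ways in anther, by -1.06 for DCL1 alone (-0.26 with equal totals) and by 1.08 for the entry that joins it with another identifier. Neither anther column reached 1 FPKM for the chromomethylase gene CMT3 or the RNA-dependent RNA polymerase gene RDR1.

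Some markers of other tissues than anther were also measured. Summed over 7 plastid and photosynthesis entries (PORB, LFNR2, PSA2, PTAC12, PRIN2, TIC62 and an entry joining LFNR1), the level was 7.21 FPKM in knockdown anther, 10.2 in WT anther, 95.1 in knockdown panicle and 155 in WT panicle. PORB, a chlorophyll synthesis enzyme gene, had 1.19 FPKM in knockdown anther and 5.08 in WT anther, a change of -1.47. The other compared plastid entries went both ways, with PSA2 at -0.51, TIC62 at 0.31 and PRIN2 at 0.97. Of the 4 compared, 1 was lower and none higher, beside 17.6% and 7.37% over all compared genes. Their median change was -0.10. The shoot meristem gene OSH1 had 0.747 FPKM in knockdown anther, 3.78 in WT anther, 0.409 in knockdown panicle and 0.788 in WT panicle, so that WT anther was its highest column. Its anther change was -1.45, while LAX2 and MOC1, which act in branching, stayed under 1 FPKM. With equal totals PORB and OSH1 changed by -0.86 and -0.92. The floral genes MADS14 and MADS58 changed by -0.19 and -0.60. MADS14 was as high in anther as in panicle, at 12.3 FPKM in knockdown anther, 14.2 in WT anther, 12.4 in knockdown panicle and 15.3 in WT panicle. The part of other tissues in the anther changes was not tested.

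The largest changes of all fell on entries that the table does not name. Os02g0586900 (chromosome 2, 22622383 to 22623581) stood at 336 FPKM in knockdown anther, 0.362 in WT anther, 0.637 in knockdown panicle and 10.4 in WT panicle. An entry joining 3 identifiers on chromosome 12 (22591680 to 22601855) stood at 2448 FPKM in knockdown anther, 16.02 in WT anther, 32.3 in knockdown panicle and 78.1 in WT panicle. Both were high in knockdown anther alone. Os03g0650300 (chromosome 3, 25227166 to 25228502) stood at 3.18 FPKM in knockdown anther, 2711 in WT anther, 0 in knockdown panicle and 2.79 in WT panicle. Os05g0568300 (chromosome 5, 28296563 to 28300466) stood at 0.0184 FPKM in knockdown anther and 147 in WT anther, but at 21.96 in knockdown panicle and 18.8 in WT panicle. This gene was thus nearly absent from knockdown anther alone.

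Genes of short loci were called more often in both directions. The median span of a locus was 3772 bases for higher genes, 3758 for lower genes and 4669 for genes called in neither direction. Among the 548 genes with a span under 1000 bases 14.1% were higher and 31.4% lower. Among the 6449 genes from 4000 to 8000 bases the shares were 5.92% and 14.1%. The span of a locus includes introns and is not the transcript length by which FPKM is divided.

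**Figure D5:**
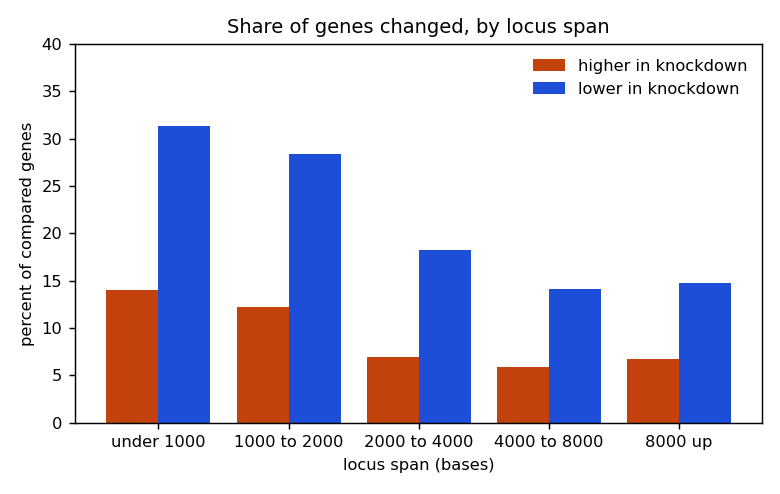
Bars give the percent of compared genes called higher or lower in knockdown anther, by the span of the locus in bases. Both shares are largest under 1000 bases, at 14.1% higher and 31.4% lower.

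The calls were spread over the whole genome. By chromosome, between 6.06% (chromosome 9) and 8.97% (chromosome 4) of the compared genes were higher, and between 15.4% (chromosome 10) and 18.8% (chromosome 6) were lower. Neighbouring genes were called alike slightly more often than genes in general. The next compared gene downstream that did not overlap was higher for 11.5% of higher genes, beside 7.56% over all genes, and lower for 19.6% of lower genes, beside 17.0% over all genes.

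Runs of adjacent calls were short. There were 5 runs of 4 higher genes and none longer. Among lower genes 13 runs held 4 genes, 4 held 5 and 1 held 8. The run of 8 covered 35.3 kb of chromosome 6 (27303682 to 27339030), with changes between -1.18 and -3.12 and WT levels between 2.28 and 1567 FPKM. A run of 4 higher genes on chromosome 4 (5318069 to 5486764) was almost silent in WT anther. Its genes had 4.31 to 7.68 FPKM in knockdown anther and 0.0347 to 0.104 FPKM in WT anther, with changes between 2.304 and 3.07. All of them reached 1 FPKM only in knockdown anther, so they could enter a run only with a rise. Overlapping loci were skipped in these runs, but close copies of a gene can share reads. Genes that were not compared were skipped as well, so the members of a run need not be direct neighbours.

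Many genes fill 2 rows at a locus. Where the stronger row reached 50 FPKM, the median share of the fainter row was 2.37% in knockdown anther (847 genes) and 2.33% in WT anther (1416 genes), with quartiles of 1.84% and 3.14% in knockdown anther and 1.70% and 3.15% in WT anther. The median share was thus small and similar in both genotypes, though it varied between genes. What the fainter row stands for is not given in the sources used here. Of 2192 genes with both rows at 1 FPKM or more in an anther column, 479 had both rows called in the same direction, 521 had a single row called and 6 had rows called in opposite directions.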

How the data were processed

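RNA was sequenced with a directional kit, per the labels' protocols. The submitters' processing notes name Trimmomatic, HISAT2 and Cufflinks 2.2.1, with no role or order. The deposited values are FPKM, per the file headers, in 1 column per group. How the 2 libraries of a group were combined, the genome build and any scaling between libraries are not given in the sources used here. FPKM carries no read number, so the depth is unknown and no interval is given. No column belonged to another series.

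Rows sharing a gene name were summed (43897 rows, 30154 names). Genes with at least 1 FPKM in either anther column were compared as differences of log2(FPKM + 1) and called at 1 or more. The limma fit foreseen for replicate columns could not be made. Gene lists and families were chosen with earlier results of these data known, and the families after the table was seen. Of 291 listed symbols, 19 were found by symbol, and 7 of the 14 lists had none. They gave 14 compared entries, 3 higher and 4 lower, beside 7.37% and 17.6% over all compared genes. Named genes were the compared list genes, the 15 largest rises and falls among entries with a symbol, and the 2 largest of each over all genes; further family members were chosen after their values were seen. Symbols were looked up in a RefSeq gene table (assembly ASM3414082v1), where 99 of 176 were found, and 1599 entries join several names. The calling step was run on simulated data, made from the WT column with large planted changes and no scaling difference between columns. This checks the code only and says nothing on how reliable the calls are. Python 3.11.15, numpy 2.4.6, pandas 2.3.3 and matplotlib 3.10.9 were used.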

Additional observations from a re-analysis of the deposited data

Results flagged for a closer look

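Among the named and family genes, 6 entries passed the threshold in opposite directions in anther and panicle. This count does not cover the other compared genes. Each group has 1 value, so the difference between tissues was not tested. The chitinase gene Cht1 changed by 2.98 in anther and by -1.51 in panicle, Cht6 by 1.32 and -2.13, and the entry joining Cht9 by 2.36 and -1.08. These 3 of the 4 chitinase entries that were higher in knockdown anther were thus lower in knockdown panicle, and the other, Cht11, changed by 2.23 in anther and 0.70 in panicle. DCL1 changed by -1.06 in anther and by 10.36 in panicle, where its knockdown value of 10595 FPKM stands far from the other 3 columns. Os02g0586900 changed by 7.95 in anther and by -2.79 in panicle, and the entry joining 3 identifiers on chromosome 12 by 7.17 and -1.25.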

How the results depend on the processing

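No paired analysis was possible because each group has a single deposited column, and likewise no library could be left out. Over 9 alternatives, 57 summary values were recomputed, and 42 of them moved by less than 1.5 times (counts) or 0.1 (medians). The equal counts without the filter are fixed by construction and show no stability. A pseudocount of 0.1 gave 2310 higher genes. A mean of at least 5 FPKM left 633 higher genes, 4 called genes of the lists (7 as reported) and a median change of -0.28. Without the filter the median change was -0.0083, and median centring sets it to 0. It was 0.082 with quantile normalization and 0.60 with equal totals, so its sign follows the scaling. Equal totals gave 5267 higher and 1330 lower genes (79.8% of calls higher) and 4 called list genes. Quantile normalization gave 45.3% of calls higher and median centring 41.5%, beside 29.5% as deposited. With quantile normalization 37 of the 62 genes at 1000 FPKM or more in WT anther were lower. A threshold of 2 left 245 higher and 942 lower genes and 2 list genes. No called change of a named or family gene turned its sign, over 89 such genes. This was nearly fixed in advance and shows no stability. Equal totals shift a change by at most 0.898 and median centring by 0.151, while a call needs 1. The pseudocount, filters, threshold and left-out rows cannot turn a sign, so only quantile normalization could. With equal totals 15 of these genes lost their call and 10 gained one. Depth is unknown, so low values cannot be weighed by their reads.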
